A study of Mus musculus with 9 samples.

Results

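The transcripts described here are those of the proteasome genes of BV2 cells, a mouse microglial line. Every row whose gene symbol begins with Psma, Psmb, Psmc, Psmd, Psme, Psmf or Psmg and a digit was taken, and the 3 immunoproteasome genes Psmb8, Psmb9 and Psmb10 and 4 pseudogene symbols were dropped. That left 47 of the 55335 genes in the table. The list is wider than the constitutive subunits, since it also holds assembly chaperones, activators and the inhibitor gene Psmf1. It also takes Psmc3ip, which encodes a cofactor of homologous recombination (HOP2) and no part of the proteasome. Of the 47 genes, 45 had a mean of at least 1 FPKM across the libraries, a fragment count scaled by transcript length and library total, and were tested. Psma8, the germline alpha subunit gene, was listed at 0 in all 9 libraries, and Psmb11, the thymic beta subunit gene, did not go above 0.0173 FPKM.

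RNA from wild-type BV2 cultures was sequenced in 3 groups of 3 libraries. The control group is labelled 0 h, the hypoxia group was held at 1% oxygen for 24 h, and the last group was held at 1% oxygen for 24 h with 100 µM ethanolamine, a phospholipid precursor. No oxygen level is stated for control. The control samples also carry a treatment tag for adipocyte differentiation, which conflicts with their titles and was disregarded. Adipocyte markers are given below for that reason. Control and hypoxia differ in labelled time as well as in the hypoxia treatment, and the effects of these cannot be told apart. There was no ethanolamine group without hypoxia among the samples analysed.

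The 26S proteasome degrades proteins that carry ubiquitin chains. Its 20S core stacks rings of alpha subunits, which gate the chamber, around rings of beta subunits, of which Psmb5, Psmb6 and Psmb7 encode those that cut peptide bonds. The 19S cap binds ubiquitin chains, removes them, and unfolds the substrate with a ring of ATPases. In microglia, as in other immune cells, inflammatory signals can replace the catalytic beta subunits with the immunoproteasome forms.

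The upstream sequences of Psmb5, Psmb6, Psmd8 and Psmg1 are shown because Psmb5 and Psmb6 both encode catalytic subunits and differed in direction, Psmd8 had the highest log2 change in hypoxia, and Psmg1 the lowest of the assembly chaperone genes. Each is the 200 bases before the RefSeq start site on GRCm38.p6, read 5′ to 3′ on the gene's own strand. Capitals mark a match to TGACNNNGC, the core of the antioxidant response element, which NRF1 and NRF2 bind.
Psmb5, chr14:54617996-54618195, minus strand: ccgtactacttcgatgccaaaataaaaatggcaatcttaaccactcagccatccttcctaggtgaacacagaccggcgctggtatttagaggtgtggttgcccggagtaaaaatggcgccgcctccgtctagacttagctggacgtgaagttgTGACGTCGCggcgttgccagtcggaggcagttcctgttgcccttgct
Psmb6, chr11:70525157-70525356, plus strand: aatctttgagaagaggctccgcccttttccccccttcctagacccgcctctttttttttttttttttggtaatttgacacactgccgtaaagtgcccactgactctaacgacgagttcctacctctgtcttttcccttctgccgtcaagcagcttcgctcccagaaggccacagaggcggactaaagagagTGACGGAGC
Psmd8, chr7:29180674-29180873, minus strand: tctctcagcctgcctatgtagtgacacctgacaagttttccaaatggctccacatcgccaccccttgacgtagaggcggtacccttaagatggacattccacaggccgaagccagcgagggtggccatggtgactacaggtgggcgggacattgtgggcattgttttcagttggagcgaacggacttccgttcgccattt
Psmg1, chr16:95990961-95991160, minus strand: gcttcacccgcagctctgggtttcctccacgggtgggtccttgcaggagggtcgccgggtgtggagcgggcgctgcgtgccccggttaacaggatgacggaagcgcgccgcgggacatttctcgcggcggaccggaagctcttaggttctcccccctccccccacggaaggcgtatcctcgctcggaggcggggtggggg
The match began 47 bases before the RefSeq start in Psmb5 and 9 bases before it in Psmb6. The GENCODE gene bounds differ from these starts. They put the 5′ end of Psmb5 at 54618022 and of Psmd8 at 29180701, inside the printed ranges, and that of Psmb6 at 70525367, after its range. Distances therefore depend on the start used. RefSeq promoters of 300 bases (250 before and 50 after the start) were matched by symbol for 38 of the 45 tested genes, and both strands were searched. TGACNNNGC was in 6 of the 38 (15.8%), namely Psmb5, Psmb6, Psmc6, Psmd9, Psmd12 and Psme4, against 12.4% of all 32851 promoters. CCAAT, the NF-Y core, was in 13 (34.2%, against 37.4%). GCGTG, a core of the hypoxia response element, was in 19 (50%, against 32.4%), and its other form ACGTG in 7 (18.4%, against 19.6%). CACGTG, the E-box, which contains ACGTG, was in 3 (7.89%, against 7.15%). The first share counts tested genes with a match in any of their promoters. The second counts single promoters, whether or not the gene was expressed, so the shares are not like for like. GCGTG was in 12 of the 24 genes with a promoter that were called lower in hypoxia (below), and in 0 of the 3 called higher. These are matches of letters and carry no test.

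The library values that bear on these genes were as follows. Read numbers are not known, and FPKM summed to 324121 to 370322 per library. Ribosomal RNA-like and mitochondrial transcripts took 13.1% to 20.6% of that sum. Of 14 microglia or macrophage markers, 10 reached 1 FPKM on average in control and 11 in each hypoxic group, with summed levels of 889 to 1102, 1123 to 1271 and 1173 to 1208 FPKM in control, hypoxia and ethanolamine libraries. The microglial markers P2ry12, Tmem119 and Aif1 were under 1 FPKM in every library. Of 8 adipocyte markers only Lpl and Fabp4 reached 1 FPKM, with sums of 161 to 176 FPKM over the 9 libraries, and Adipoq, Plin1, Lep and Cfd were listed at 0. None of 10 markers of other brain or retinal cells reached 1 FPKM on average (sums of 0.436 to 1.54 FPKM), and of 4 fibroblast markers only Pdgfra came to that level, in the hypoxic groups (sums of 0.519 to 1.14 FPKM). An alternative fit left ribosomal RNA-like and mitochondrial transcripts out of the library total, and its results are given in the last section. The part of the other values in the results below was not tested. The labels do not state whether replicate libraries are separate cultures, so the p-values cover only the variation among these 9 libraries, and that variation may be technical. In RNA from a whole culture, fewer cells with a transcript and less of it per cell cannot be told apart.

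Most proteasome genes were lower in hypoxia than in control. Of the 45 tested, 30 fell, 3 rose (Psmd8, Psmb6 and Psmd10) and 12 did not pass the test (limma-trend, two-sided, Benjamini-Hochberg adjusted p below 0.05 over 11802 genes). Of all tested genes 59.4% were called, 34.7% lower and 24.7% higher, against 73.3% of the proteasome genes, 66.7% lower and 6.67% higher. The median log2 change was -0.38 over the 45 genes and -0.09 over all tested genes. In 32 of the 45 (71.1%) all 3 hypoxia libraries lay below all 3 control libraries, which was so for 37.7% of all tested genes, and in 3 (6.67%) they lay above, against 27.3%. Either way, groups did not overlap in 35 (77.8%), against 65.0% of all tested genes. The genes on the list summed to 0.786% to 0.867% of a control library's FPKM and to 0.600% to 0.663% of a hypoxia library's. Log2 changes here and below were taken after adding 0.5 to each FPKM value, so that changes of low genes are understated, and levels are means ± SD of n = 3 libraries.

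**Figure D1:**
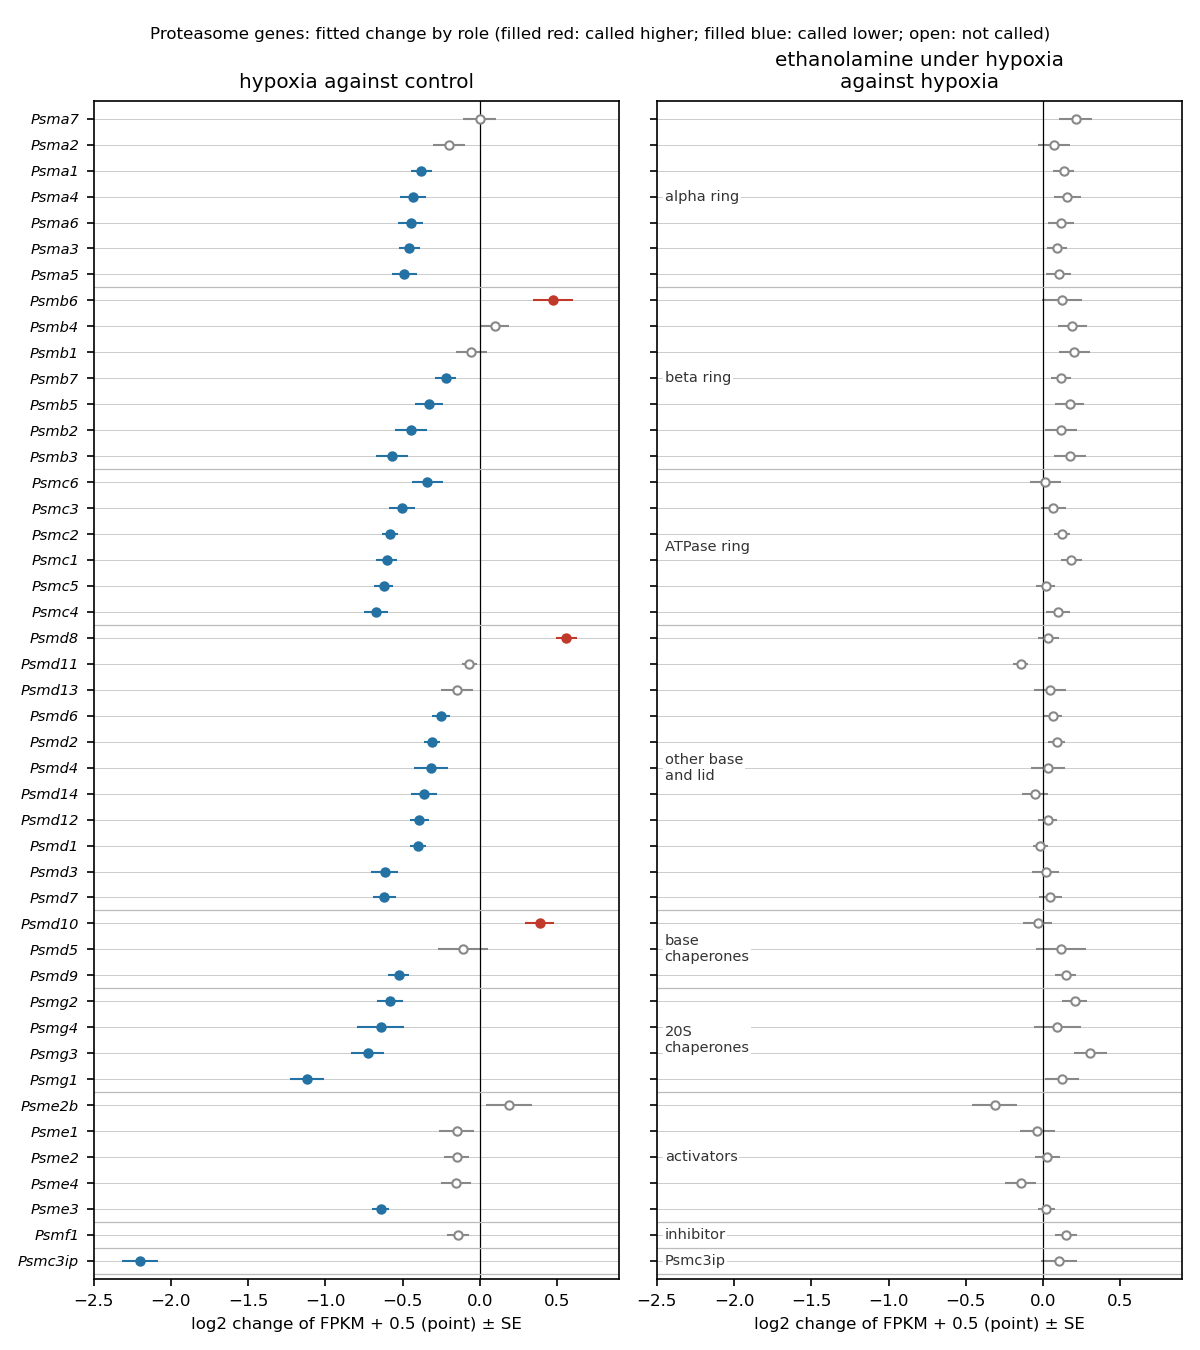
Log2 change (FPKM + 0.5) with its standard error for the 45 tested genes, ordered by role, for hypoxia against control (left) and ethanolamine under hypoxia against hypoxia (right). Filled red points were called higher, filled blue points called lower and open points were not called. On the left 30 points are blue and 3 red, and on the right all 45 are open.

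In the alpha ring 5 of 7 genes fell (Psma1, Psma3, Psma4, Psma5 and Psma6), with a median log2 change of -0.43 over the ring. Psma5 gave 93.7, 84.9 and 90.3 FPKM in control, 63.3, 59.0 and 69.2 in hypoxia and 62.9, 74.6 and 68.0 with ethanolamine. The hypoxia and control libraries did not overlap, and the change was -0.49 (SE 0.08, limma adjusted p = 0.000748). Psma7 gave 54.7, 46.6 and 58.4 FPKM in control, 56.0, 49.1 and 54.1 in hypoxia and 53.9, 65.2 and 65.8 with ethanolamine. Its control and hypoxia libraries overlapped fully (-0.00, SE 0.11, limma adjusted p = 0.996), and Psma2 also missed the threshold (-0.20, limma adjusted p = 0.132).

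The beta ring was mixed. Psmb2, Psmb3, Psmb5 and Psmb7 fell, Psmb6 rose, and Psmb1 (-0.06, limma adjusted p = 0.664) and Psmb4 (0.10, limma adjusted p = 0.387) did not pass. Psmb6, which encodes the caspase-like beta1 subunit (chromosome 11, 70525367 to 70527858, plus strand, GRCm38), gave 191, 144 and 185 FPKM in control, 260, 210 and 250 in hypoxia and 233, 284 and 268 with ethanolamine. Each hypoxia library was above each control library, and the mean went from 174 ± 25.5 to 240 ± 26.5 FPKM (0.47, SE 0.13, limma adjusted p = 0.0109). Psmb5, which encodes the chymotrypsin-like beta5 subunit, gave 184, 166 and 181 FPKM in control, 150, 126 and 147 in hypoxia and 142, 171 and 164 with ethanolamine. Here the direction was the opposite one, without overlap, from 177 ± 9.81 to 141 ± 12.7 FPKM (-0.33, SE 0.09, limma adjusted p = 0.0129). Psmb7, which encodes the trypsin-like beta2 subunit, gave 70.4, 71.9 and 73.6 FPKM in control, 64.5, 57.6 and 63.2 in hypoxia and 62.3, 71.1 and 67.6 with ethanolamine. It fell by 0.22 (SE 0.07, limma adjusted p = 0.0184). The call of Psmb7 was lost without control library 3 (-0.20), without hypoxia library 2 (-0.17) and with median-of-ratios scaling (-0.12), and that scaling also ended the call of Psmb5 (-0.23). Psmb3, a structural beta subunit gene, gave 67.3, 59.9 and 67.1 FPKM in control, 43.6, 38.2 and 49.2 in hypoxia and 43.9, 51.6 and 52.0 with ethanolamine, the largest fall in the ring (-0.57, SE 0.10, limma adjusted p = 0.00124).

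Within a library, Psmb6 made up 24.7%, 21.1% and 24.3% of the summed beta ring FPKM in control, 33.7%, 32.7% and 33.6% in hypoxia and 32.0%, 33.0% and 33.2% with ethanolamine. As a percentage of Psmb5 it was 104, 87.1 and 102 in control, 173, 166 and 171 in hypoxia and 164, 166 and 163 with ethanolamine. Such ratios do not depend on the scaling of a library. Psmb6 was the only gene of the ring called higher in hypoxia and Psmb5 was called lower, so a contrast is built into both ratios. The summed FPKM of the beta ring was 740 ± 49.1 in control and 720 ± 67.4 in hypoxia, and its libraries overlapped between the groups. The alpha ring's sum was 535 ± 23.8 in control and 413 ± 21.4 in hypoxia, without overlap. Levels within the 14 genes of the core ran in control from 22.3 FPKM (Psmb1) to 177 (Psmb5), a 7.92-fold range, and in hypoxia from 21.5 (Psmb1) to 240 (Psmb6), an 11.2-fold range.

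**Figure D2:**
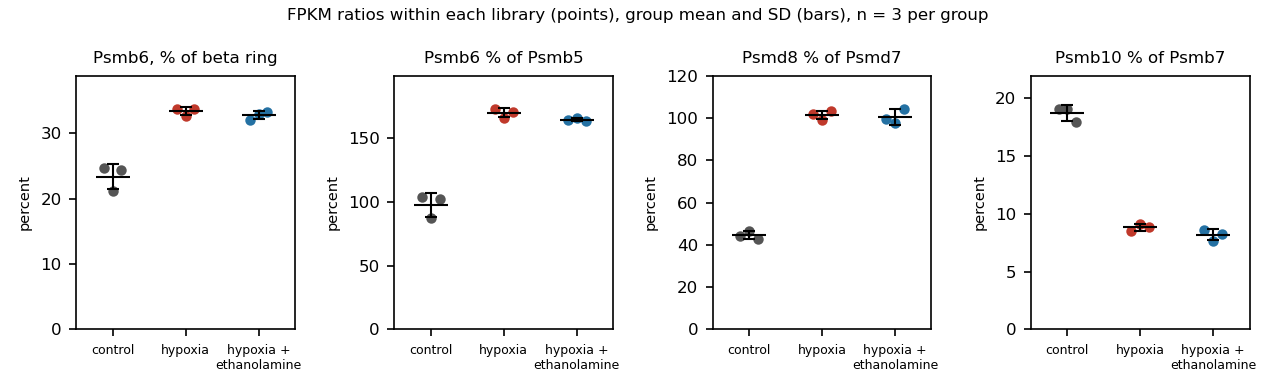
Ratios of FPKM within each library, in percent, with points for libraries and bars for the mean and SD of 3 libraries per group. The hypoxia and ethanolamine libraries lie above control for Psmb6 (of the beta ring and of Psmb5) and for Psmd8 (of Psmd7), and below control for Psmb10 (of Psmb7). Psmb6 was the only beta ring gene called higher in hypoxia, and Psmb5 was called lower. Psmd8 and Psmd7 have the highest and lowest log2 changes in hypoxia among the base and lid genes other than the ATPases.

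The ATPase ring was uniform in direction, as all 6 genes fell, with a median of -0.59 and all hypoxia libraries below all control libraries in each. Psmc4 gave 50.2, 42.0 and 46.5 FPKM in control, 27.3, 28.0 and 30.9 in hypoxia and 31.1, 31.6 and 29.6 with ethanolamine (-0.67, SE 0.08, limma adjusted p = 6.33e-05). Psmc6 had the smallest change of the ring. It gave 38.3, 46.1 and 39.4 FPKM in control, 32.1, 33.0 and 32.2 in hypoxia and 30.1, 38.0 and 30.8 with ethanolamine (-0.34, SE 0.10, limma adjusted p = 0.0165). Its call was lost without control library 2 (-0.26) and with median-of-ratios or quantile scaling (both -0.24). Psmc5 (-0.62), Psmc1 (-0.60), Psmc2 (-0.58) and Psmc3 (-0.50) lay between. The summed FPKM of the ring went from 518 ± 13.04 to 346 ± 10.8, or 66.8% of control.

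Among the 11 other genes of the 19S base and lid, 8 fell, Psmd8 rose, and Psmd11 (-0.07, limma adjusted p = 0.252) and Psmd13 (-0.15, limma adjusted p = 0.248) did not pass. Psmd8, which encodes the lid subunit Rpn12 (chromosome 7, 29174188 to 29180701, minus strand), gave 54.8, 49.5 and 50.6 FPKM in control, 76.0, 70.7 and 82.9 in hypoxia and 78.6, 79.1 and 76.8 with ethanolamine. All 6 hypoxic libraries were above all 3 control libraries, and the mean went from 51.6 ± 2.79 to 76.5 ± 6.12 FPKM (0.56, SE 0.07, limma adjusted p = 0.0001). Psmd7, which encodes the lid subunit Rpn8, was the lowest of the group. It gave 123.4, 106 and 119 FPKM in control, 74.5, 71.3 and 80.4 in hypoxia and 79.1, 81.2 and 73.5 with ethanolamine (-0.62, SE 0.08, limma adjusted p = 9.47e-05). As a percentage of Psmd7, Psmd8 was 44.4, 46.6 and 42.6 in control, 102, 99.1 and 103 in hypoxia and 99.4, 97.5 and 104 with ethanolamine. This pair holds the highest and lowest log2 changes of the group, so a wide contrast is built into the ratio.

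Psmd14, which encodes the deubiquitinase Rpn11, gave 38.4, 41.7 and 41.2 FPKM in control, 29.7, 32.1 and 32.4 in hypoxia and 29.3, 34.3 and 27.4 with ethanolamine (-0.36, SE 0.08, limma adjusted p = 0.00512). Psmd4, which encodes the ubiquitin receptor Rpn10, gave 75.9, 61.0 and 67.7 FPKM in control, 58.3, 46.8 and 59.1 in hypoxia and 56.5, 59.1 and 51.9 with ethanolamine (-0.32, SE 0.11, limma adjusted p = 0.0331). In hypoxia against control the call of Psmd4 was lost in 6 of 19 alternative settings, among them without control library 1 (-0.24), without control library 3 (-0.32) and without hypoxia library 2 (-0.21). The remaining called genes were Psmd3 (-0.61), Psmd1 (-0.40), Psmd12 (-0.39), Psmd2 (-0.31) and Psmd6 (-0.25).

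The 4 chaperone genes of core assembly had the lowest median of the groups with more than 1 gene, -0.68, and all 4 fell. Psmg1 (chromosome 16, 95979933 to 95990960, minus strand), whose product pairs with that of Psmg2 to build the alpha ring, gave 52.2, 46.6 and 49.5 FPKM in control, 19.7, 21.5 and 26.9 in hypoxia and 22.5, 25.6 and 25.6 with ethanolamine. The groups lay far apart, with means of 49.4 ± 2.82 in control and 22.7 ± 3.76 in hypoxia (-1.12, SE 0.11, limma adjusted p = 2.63e-05). Psmg2 had the smallest change of the group. It gave 19.7, 23.4 and 21.4 FPKM in control, 13.3, 13.97 and 15.4 in hypoxia and 16.4, 17.3 and 15.6 with ethanolamine (-0.58, SE 0.08, limma adjusted p = 0.000245). Psmg3 (-0.73) and Psmg4 (-0.64) code for a second chaperone pair. The 4 genes summed to 116 ± 8.23 FPKM in control and 64.8 ± 6.75 in hypoxia, or 56.0% of control. Pomp, the maturation factor of the core and no member of the list, did not pass (16.1 ± 1.003 and 17.1 ± 0.934 FPKM, log2 change 0.08, limma adjusted p = 0.365).

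The 3 chaperone genes of the cap's base differed in direction. Psmd10, which encodes gankyrin, gave 19.8, 18.7 and 21.4 FPKM in control, 28.1, 24.8 and 25.8 in hypoxia and 23.1, 28.9 and 25.1 with ethanolamine, and rose without overlap (0.39, SE 0.09, limma adjusted p = 0.0054). Psmd9 gave 6.19, 5.62 and 5.67 FPKM in control, 3.93, 3.77 and 3.97 in hypoxia and 4.48, 4.21 and 4.40 with ethanolamine, and fell without overlap (-0.53, SE 0.07, limma adjusted p = 0.000132). Psmd5 was not called (-0.11, limma adjusted p = 0.595).

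**Figure D3:**
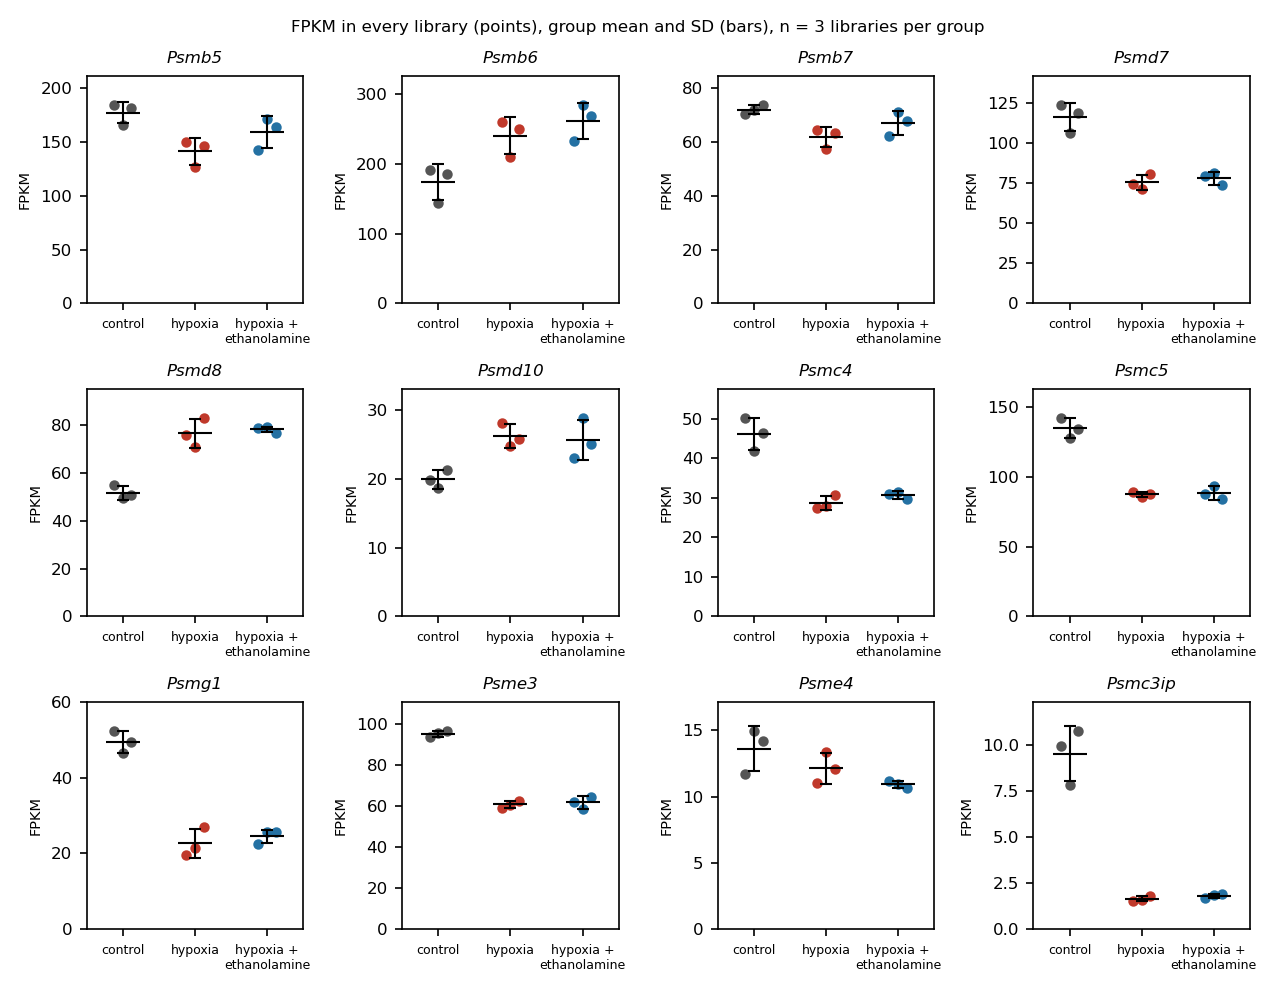
FPKM of 12 genes in each library (points), with the mean and SD of 3 libraries per group (bars), on linear axes that start at 0. In hypoxia Psmb6, Psmd8 and Psmd10 lie above control and the other 8 called genes below it, while the Psme4 libraries overlap between the groups.

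Of the 5 activator genes, only Psme3 was called in hypoxia. Psme3 encodes PA28 gamma, a nuclear activator that works without ubiquitin or ATP. It gave 93.7, 95.7 and 96.7 FPKM in control, 59.4, 60.7 and 62.8 in hypoxia and 62.4, 58.6 and 64.8 with ethanolamine (-0.64, SE 0.05, limma adjusted p = 9.14e-06). Psme1 and Psme2, which encode the interferon-inducible PA28 alpha and beta, both had a change of -0.15 (limma adjusted p = 0.292 and 0.134). Psme4, which encodes PA200, gave 11.7, 14.9 and 14.2 FPKM in control, 11.03, 13.4 and 12.04 in hypoxia and 11.2, 10.9 and 10.6 with ethanolamine. Its control and hypoxia libraries overlapped (-0.15, SE 0.10, limma adjusted p = 0.215), though it was called without control library 1 (-0.26). Psme2b, a near copy of Psme2, gave 2.65, 2.71 and 3.84 FPKM in control, 4.08, 2.99 and 3.57 in hypoxia and 2.54, 2.94 and 2.74 with ethanolamine (0.19, SE 0.15, limma adjusted p = 0.299). The inhibitor gene Psmf1 (PI31) gave 6.37, 6.08 and 6.61 FPKM in control, 5.25, 6.08 and 5.85 in hypoxia and 6.47, 6.53 and 6.22 with ethanolamine. Its control and hypoxia libraries met at 6.08 (-0.14, SE 0.07, limma adjusted p = 0.125).

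The lowest change on the list belonged to Psmc3ip, the gene with no role in the proteasome. It gave 9.95, 7.85 and 10.7 FPKM in control, 1.55, 1.62 and 1.82 in hypoxia and 1.69, 1.87 and 1.91 with ethanolamine, with means of 9.52 ± 1.496 in control and 1.66 ± 0.144 in hypoxia (-2.20, SE 0.12, limma adjusted p = 5.79e-07). It lies on chromosome 11 (101091823 to 101095436, minus strand) and overlaps Mlx on the opposite strand.

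**Figure D4:**
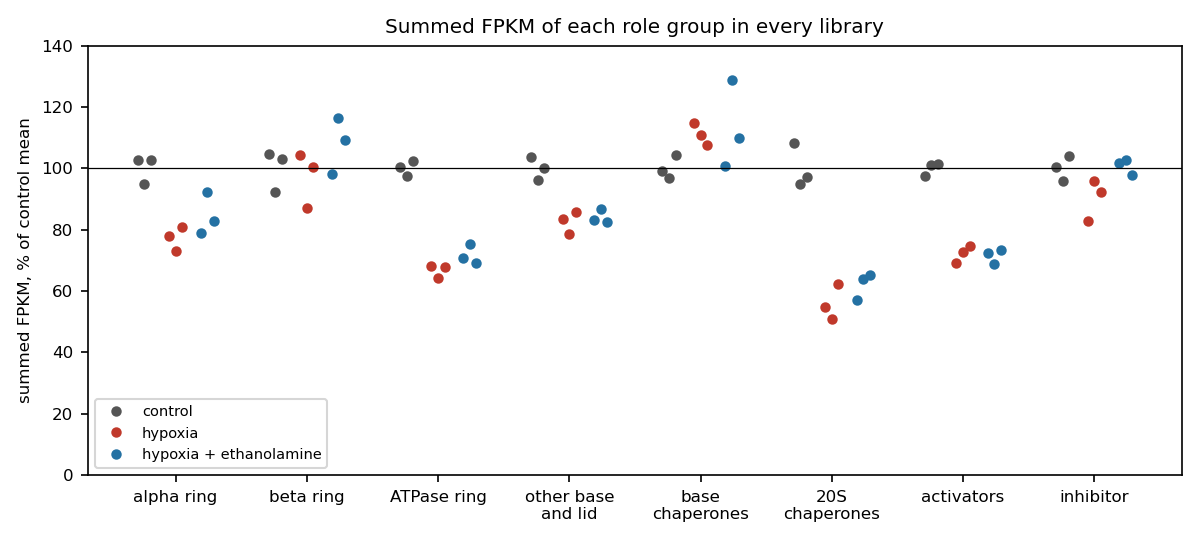
Summed FPKM of each role group in every library, as a percentage of the mean of the 3 control libraries, on a linear axis that starts at 0. Hypoxia libraries of the alpha ring, ATPase ring, other base and lid, core chaperones and activators lie below all their control libraries. Those of the base chaperones lie above, and those of the beta ring and the inhibitor overlap with control. Psme3 accounts for 95.4 of the activators' mean of 136 FPKM in control.

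Some members share sequence with other genes, and their values are less certain. In the longest coding transcript, the share of 50-base words also found in another gene of at least 1 FPKM was 68.7% for Psme2b and 59.3% for Psme2 (mostly with each other), 54.5% for Psma5, 52.9% for Psmb3, 49.4% for Psmb5, 25.6% for both Psma4 and Psmd2, 22.0% for Psma3 and 13.7% for Psmc1. For Psmb5 that gene was Gm3375, with means of 6.01 FPKM in control and 4.30 in hypoxia. For Psma3 it was Gm13835, with 30.3 FPKM in control and 19.2 in hypoxia, near the 40.3 and 29.2 of Psma3 itself. The gene sharing most with Psmb3 has no symbol and stood at 12.8 FPKM in control and 7.37 in hypoxia. How far these genes enter the values was not tested. The share was 0 for Psmb6, Psmd8, Psmd10, Psmg1, Psme3 and Psmc3ip. Psma3, Psmb7, Psmc3, Psmd1 and Psmd13 overlap an expressed gene on the opposite strand, and Psma2, Psmd1 and Psmd13 one on their own strand. The sources used here do not say whether reads were assigned by strand.

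Both tested genes of the immunoproteasome were lower in hypoxia too. Psmb10, the counterpart of Psmb7, gave 13.5, 13.7 and 13.2 FPKM in control, 5.48, 5.27 and 5.59 in hypoxia and 5.38, 5.46 and 5.62 with ethanolamine (-1.23, SE 0.06, limma adjusted p = 2.43e-07). As a percentage of Psmb7 it was 18.0 to 19.1 in control, 8.49 to 9.15 in hypoxia and 7.67 to 8.63 with ethanolamine. Psmb8, the counterpart of Psmb5, fell from 5.25 ± 0.286 to 3.79 ± 0.665 FPKM (-0.43, SE 0.13, limma adjusted p = 0.0169), and its call was lost without control library 3 (-0.41), without hypoxia library 2 (-0.31) and with quantile scaling (-0.33). Psmb9 was under the filter on low values, at 0.404 ± 0.121, 0.267 ± 0.0952 and 0.299 ± 0.107 FPKM in control, hypoxia and ethanolamine libraries.

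Of 121 tested genes in 7 lists of the wider ubiquitin-proteasome pathway, 46 fell (38%, against 34.7% of all tested genes) and 20 rose (16.5%, against 24.7%) in hypoxia. Their median log2 change was -0.14, against -0.09 over all tested genes. Among 19 proteasome-associated genes 13 fell (68.4%) and AI314180, the mouse Ecpas gene, rose (0.37, limma adjusted p = 0.000792). The cap's ubiquitin receptor gene Adrm1 fell from 28.7 ± 1.05 to 17.7 ± 0.505 FPKM (-0.68, SE 0.08, limma adjusted p = 5.75e-05), and Uchl5, whose product Adrm1 activates, from 37.7 ± 4.37 to 19.5 ± 1.13 FPKM (-0.93, limma adjusted p = 2.04e-05). The cap deubiquitinase gene Usp14 fell as well (-0.33, limma adjusted p = 0.00658), whereas Sem1, the small lid subunit gene, did not pass (0.09, limma adjusted p = 0.446).

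Upstream of the proteasome, ubiquitin and E1 genes gave 5 lower (35.7%) and 1 higher (7.14%) of 14, where 34.7% and 24.7% of all tested genes were called. The polyubiquitin gene Ubb (613 ± 86.9 and 612 ± 44.3 FPKM, limma adjusted p = 0.969) was not called. Uba1, the main ubiquitin E1 gene, fell by 0.26 (limma adjusted p = 0.00166) and Sae1, a subunit of the SUMO E1, by 1.44 (limma adjusted p = 1.73e-07). Of 31 E2 genes 10 rose (32.3%, against 24.7% of all tested genes) and 7 fell (22.6%, against 34.7%). The lowest were Ube2c (-2.56) and Ube2s (-1.01), both E2 enzymes of the anaphase-promoting complex, and Ube2t (-1.03), an E2 of the Fanconi pathway. Of 17 genes of p97 and its cofactors 3 rose (17.6%) and 7 fell (41.2%), with Vcp, which encodes p97 itself, at 81.0 ± 2.20 and 52.3 ± 0.430 FPKM (-0.63, limma adjusted p = 4.15e-06). Cullin ligase genes counted 2 higher (8%) and 8 lower (32%) of 25, the latter near the 34.7% of all tested genes, and Vhl, the receptor of hydroxylated HIF alpha subunits, was the highest (4.18 ± 0.337 and 11.6 ± 1.54 FPKM, log2 change 1.37, limma adjusted p = 7.42e-06).

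Regulators of proteasome genes gave 3 higher (21.4%) and 5 lower (35.7%) of 14, close to the 24.7% and 34.7% of all tested genes. NRF1, encoded by Nfe2l1, is the transcription factor that raises proteasome genes when proteasome activity falls short. Nfe2l1 gave 13.2, 13.5 and 10.5 FPKM in control, 37.0, 11.9 and 29.7 in hypoxia and 37.5, 35.6 and 9.89 with ethanolamine. Hypoxia library 2 and ethanolamine library 3 were at the control level and the other 4 hypoxic libraries at 29.7 or more. It was not called (0.91, SE 0.53, limma adjusted p = 0.172), but was without hypoxia library 2 (1.39). Ngly1, whose product is needed to activate NRF1, rose from 1.89 ± 0.0989 to 4.37 ± 0.259 FPKM (1.03, limma adjusted p = 5.67e-06), and Ddi2, which encodes the protease that cuts NRF1, fell by 0.32 (limma adjusted p = 0.013; not called with quantile scaling, -0.21). Maff, a small Maf partner of NRF1 and NRF2, rose from 5.47 ± 0.527 to 20.01 ± 2.38 FPKM (1.78, limma adjusted p = 5.79e-07), and Nfe2l2, which encodes NRF2, was not called (-0.09, limma adjusted p = 0.201).

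The comparison of ethanolamine under hypoxia with hypoxia alone asks whether the supplement changes these transcripts. None of the 45 genes was called by limma, where 0.568% of all tested genes were (67 of 11802, 0.119% higher and 0.449% lower), and 5 of the 45 had an unadjusted p below 0.05, against 1730 of all 11802. The log2 changes ran from -0.31 (Psme2b) to 0.30 (Psmg3). Of the 45, 38 were above 0 and 7 below, whereas of all 11802 tested genes 6287 were above 0 and 5514 below. The median over the 45 genes was 0.09, against 0.01 over all tested genes. That median was 0.06 without hypoxia library 2 and also without ethanolamine library 2, 0.11 without ethanolamine library 1 and 0.13 without hypoxia library 3. The genes with unadjusted p below 0.05 were Psmd11 (-0.14, SE 0.05), Psmg3 (0.30, SE 0.11), Psmc1 (0.18, SE 0.07), Psmg2 (0.21, SE 0.08) and Psmc2 (0.12, SE 0.05), and the smallest limma adjusted p was 0.218, for Psmd11. Psmd11, which encodes the lid subunit Rpn6, gave 34.5, 34.2 and 34.1 FPKM in hypoxia and 31.6, 30.0 and 31.2 with ethanolamine, without overlap. Groups did not overlap for 10 of the 45 genes (22.2%), against 21.6% of all tested genes. Of these, 8 (17.8%) were higher with ethanolamine, against 10.5%, and 2 (4.44%) lower, against 11.2%. None of the 121 pathway genes was called.

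Ethanolamine under hypoxia against control uses the same control libraries as hypoxia against control, so its values stand beside the others as a description. Of the 45 genes 29 were lower, 4 higher (Psmb6, Psmd8, Psmd10 and Psmb4) and 12 not called, with 58.5% of all tested genes called (34.4% lower and 24.1% higher). Libraries of the groups did not overlap in 35 genes (77.8%, against 64.5% of all tested), 31 lower (68.9%, against 37.7%) and 4 higher (8.89%, against 26.8%). The median log2 change was -0.32 over the 45 genes and -0.08 over all tested genes. Psmb6 stood at 262 ± 25.9 FPKM (0.60, limma adjusted p = 0.00336) and Psmd8 at 78.2 ± 1.22 (0.59, limma adjusted p = 7.96e-05). Psmb5 (159 ± 15.2 FPKM, log2 change -0.16, limma adjusted p = 0.178) and Psmb7 (67.0 ± 4.44 FPKM, log2 change -0.10, limma adjusted p = 0.212) did not pass here, and their difference between hypoxia with and without ethanolamine was not called either (limma adjusted p = 0.432 and 0.465). Psmg1 (-0.995), Psme3 (-0.62) and all 6 ATPase genes (-0.61 to -0.32) were lower. Psmc6 (-0.32) lost the call in 6 of 19 alternative settings. Among them were those without control library 2 (-0.24) and without ethanolamine library 1 (-0.26) or 3 (-0.28). Psmb4 was called at 0.29 (limma adjusted p = 0.0243) and lost the call in 6 of 19 alternative settings. These were without control library 1 (0.28) or 3 (0.28), without ethanolamine library 2 (0.24) or 3 (0.26), with no filter on low values (0.29) and with a replicate block (0.29). Psmd11 and Psme4 were called lower (-0.21 and -0.30, limma adjusted p = 0.00437 and 0.0292). The call of Psmd11 was lost with median-of-ratios (-0.12) and quantile (-0.14) scaling. The call of Psme4 was lost without control library 2 (-0.23) or 3 (-0.26) and without ethanolamine library 1 (-0.31), 2 (-0.30) or 3 (-0.28), as well as with no filter (-0.30) and with all 3 other scalings (-0.25 to -0.21).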

How the data were processed

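RNA sequencing values of 9 libraries, 3 per group, were grouped by sample title. The control samples carry a treatment tag for adipocyte differentiation that conflicts with their titles, and it was disregarded. FPKM values per gene and library were deposited by the authors for 55335 genes, with no counts. Per the submitters' processing notes the build was GRCm38 (mm10). For the aligner and the quantifier, the entry is "not given in the sources used here". The other deposited file, with binned FPKM, was left out. Whole reads could not be recovered, so no counting interval can be given. Since FPKM divides by a library total, transcripts that take more of it lower the rest.

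The 11802 genes averaging 1 FPKM or more were fitted as log2(FPKM + 0.5) by limma-trend (limma 3.58.1 in R 4.3.3; the data.table package was at version 1.17.8). The model held the 3 group means and no covariates. Tests were two-sided, with Benjamini-Hochberg adjustment over all 11802 genes at 0.05. The code was tested on simulated data. Alternatives changed the pseudocount (0.1 or 1), the filter (none or 5 FPKM), the scaling (median-of-ratios, quantile, or without ribosomal RNA-like and mitochondrial transcripts), the samples (only both groups of a comparison, or each library left out), the covariates (a replicate block) or the variance prior (no trend). GENCODE M21 on GRCm38, which held 55154 of the identifiers, gave positions, overlaps and transcripts, and RefSeq (GRCm38.p6) the promoters. Python 3.11.15, pandas 2.3.3 and matplotlib 3.10.9 were used for the rest.

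The proteasome genes, pathway lists and named genes were chosen with earlier results of these data known. Library values are given for the highest and lowest log2 change in hypoxia of each role group, for Psmb5, Psmb6, Psmb7, Psmd4, Psmd14, Psme3, Psme4, Psmf1 and Psmc3ip, and for any member called with ethanolamine against hypoxia. Outside the list, a fixed set of genes and called pathway genes with an absolute log2 change of at least 1 are named. Not every gene that this rule names is reported here. Library values of Psmd11, Psmb10 and Nfe2l1, the genes Gm3375, Gm13835 and AI314180 and the gene sharing most with Psmb3 were added after they were seen.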

Additional observations from a re-analysis of the deposited data

How the results depend on the processing

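Across 19 alternatives, the number of the 45 genes called in hypoxia against control was 29 (median-of-ratios scaling) to 33, 31 to 33 with 1 library left out, and 28 of the 33 were called in every setting. It was 0 throughout for ethanolamine against hypoxia, where the number of all genes called ranged from 0 to 75. For ethanolamine under hypoxia against control it was 26 (median-of-ratios scaling) to 34, 27 to 34 with 1 library left out, and 24 of the 33 were called in every setting. Called genes did not change sign in any of these settings. Of genes not called, Psma7 in hypoxia against control turned to 0.097, 0.080 and 0.045 with median-of-ratios scaling, quantile scaling and a library total that omits ribosomal and mitochondrial RNA, and ranged from -0.093 to 0.069 with 1 library left out. Psmd11 turned to 0.029 and 0.040 and Psmb1 to 0.041 and 0.045 with median-of-ratios and quantile scaling, and Psmd5 to 0.018 with quantile scaling. Outside the list, Nfe2l2 turned to 0.0077 and 0.0096 with those scalings, and Ubb to -0.16 with quantile scaling and ranged from -0.11 to 0.098 with 1 library left out. For ethanolamine under hypoxia against control, with 1 library left out, Psmd5 ranged from -0.16 to 0.15, Psmf1 from -0.017 to 0.039 and Psme2b from -0.21 to 0.025. Median-of-ratios scaling moved the median of all genes in hypoxia against control from -0.09 to 0.00, and that of the 45 genes from -0.38 to -0.28. With quantile scaling these medians were -0.02 and -0.30. With a library total that omits ribosomal and mitochondrial RNA they were -0.04 and -0.33, and 33 of the 45 genes were called, 30 lower and 3 higher. Quantile scaling ended the call of Psmd6 (-0.14). The cause of these changes was not tested. No pairing by replicate number was seen. Deviations of libraries with the same number correlated at -0.117 to 0.109, and those with different numbers at -0.163 to 0.163. With 3 libraries per group, such values cannot exclude a pairing. With the replicate block, 33, 0 and 32 genes were called in the comparisons in the order above, and the block ended the call of Psmb4 in ethanolamine under hypoxia against control (0.29). Single libraries decide the hypoxia calls of Psmd4, Psmb7 and Psmc6, and the unknown depth limits Psmb9 and Psmb11.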
